A study of Homo sapiens with 18 samples.

Results

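The endoplasmic reticulum folding and stress genes are a set of 39 genes that serve proteins entering the secretory pathway. They were chosen by name from the 26443 genes with deposited values, and all 39 were listed. They fall into 5 roles: 11 chaperones and their co-factors, 5 disulfide enzymes, 8 degradation factors, 8 parts of the translocation machinery and 7 stress sensors and regulators. A member entered the tests where it reached 1 RPKM in at least 3 of the 18 libraries, which 38 did. DERL3, a degradation factor, did not, with 0.102 to 0.492 RPKM over the 18 libraries.

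RNA was sequenced from LNCaP, an established human prostate cancer line, in 6 groups of 3 libraries. Cells carried lentiviral shRNAs against both FOXA1 and HIF1A, the FOXA1 shRNA with KC7F2, the FOXA1 shRNA alone, the HIF1A shRNA alone, the control vector pGIPZ with KC7F2, or pGIPZ alone. Infection lasted 5 days. CoCl2 at 100 µM, which mimics hypoxia, was present for the last 24 h in all 6 groups, control included, so no group shows these cells without it. KC7F2, an inhibitor of HIF1A, was used at 40 µM for 24 h. FOXA1 is a pioneer factor of luminal prostate cells, HIF1A the oxygen-regulated subunit of the hypoxia factor, and the groups ask what each knockdown and the inhibitor did alone and together. The number of shRNA clones and the vehicle of KC7F2 are not stated. Triplicates are named without saying whether each was its own culture, and the p-values thus cover only the spread among these libraries.

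Proteins bound for secretion or the cell surface enter the endoplasmic reticulum through the SEC61 channel, lose their signal peptide, are folded by chaperones such as HSPA5 and calreticulin, and have disulfide bonds set by the PDI family. Chains that fail to fold are drawn back and degraded. When unfolded chains build up, 3 sensors in the membrane respond: ERN1 (IRE1) splices XBP1 mRNA, EIF2AK3 (PERK) slows translation by phosphorylating eIF2α, and ATF6 is cut to release a transcription factor. Spliced XBP1 and cut ATF6 switch on chaperone genes through the ER stress element of their promoters. Prostate luminal cells secrete heavily, which makes this machinery prominent in them.

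The libraries held 3.26 to 12.1 (in units of 1e6) reads, as recovered from the steps of short genes, with means from 6.06 ± 2.61 with both shRNAs to 11.1 ± 0.677 in control (SD, n = 3 each). The labelled cells were checked by 9 luminal and 11 other markers. Each luminal marker was above 0 in all 18 libraries. KRT5 was at 0 in 18, TP63, CD3E and COL1A2 in 17, PTPRC in 15, DCN in 12 and PECAM1 in 11 of them. KRT14, CD68, VWF and COL1A1 were, like the luminal markers, above 0 in all 18, with CD68 at up to 19.3 RPKM. A level above 0 thus did not separate the luminal from the other markers. The summed luminal markers were 820.1 to 921 RPKM with both shRNAs, 1397 to 1516 with shFOXA1 plus KC7F2 and 1385 to 1531 with shFOXA1. They were 993 to 1183 with shHIF1A and 1437 to 1561 in KC7F2-treated control cells, against 1655 to 2116 RPKM in control. Of the 9 luminal markers, 1 rose and 4 fell with KC7F2 against control, where 2.04% of all tested genes were called. With shFOXA1 2 rose and 3 fell, and with shHIF1A 0 rose and 6 fell, where 24.1% and 42% of all genes were called. The summed other markers were 18.6 to 21.8 RPKM with both shRNAs, 17.1 to 19.5 with shFOXA1 plus KC7F2 and 24.9 to 26.2 with shFOXA1. They were 13.97 to 15.5 with shHIF1A and 8.12 to 9.81 in KC7F2-treated control cells, against 10.4 to 11.8 in control. Of the 4 of them tested, CD68 rose by 1.45 ± 0.14 (adjusted p = 1.31e-06) and KRT14 rose by 1.21 ± 0.22 (adjusted p = 0.000774) with shFOXA1. With shHIF1A both fell, while COL1A1 rose by 1.45 ± 0.16 (adjusted p = 2.22e-06), at 5.996, 7.28 and 7.25 RPKM against 1.83, 2.62 and 2.13 in control, and VWF rose by 1.30 ± 0.17 (adjusted p = 1.69e-05), at 2.10, 2.21 and 2.73 RPKM against 0.548, 0.752 and 0.658 in control. The part of these markers in the results was not tested, and in bulk RNA fewer cells of a type and less RNA per cell cannot be told apart. FOXA1 mRNA was at 35.1, 32.4 and 34.8 RPKM with shFOXA1, against 71.5, 114 and 107 in control, and fell by 1.47 ± 0.16 (adjusted p = 3.44e-06). HIF1A mRNA was at 3.06, 4.28 and 3.33 RPKM with shHIF1A, against 13.96, 27.3 and 27.99 in control, and fell by 2.49 ± 0.23 (adjusted p = 4.97e-07). With shFOXA1 alone HIF1A was at 88.6, 81.7 and 99.5 RPKM. With both shRNAs FOXA1 was at 70.7, 63.5 and 59.2 RPKM, above shFOXA1 alone by 0.91 ± 0.16 (adjusted p = 0.000302). The cells with both shRNAs enter the comparisons on top of shFOXA1 and within HIF1A knockdown, the interaction of both knockdowns, and that of the HIF1A shRNA with KC7F2 on shFOXA1. The part of this FOXA1 difference in them was not tested. In 3 libraries, control 1 and KC7F2-treated control 1 and 3, short genes read higher relative to long genes, by 0.31 to 0.45 on the log2 scale, against -0.20 to 0.08 in the other 15. They are called the short-gene libraries below, and where a member lost a call without them this is stated beside the call. The adjusted p given there can be a range over several alternatives.

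Levels are RPKM, reads scaled by the length of the transcript and the depth of the library. Changes are differences of log2(RPKM + 0.5) ± SE, first group minus second, from 1 limma fit of 12900 genes, and a gene rose or fell only where the p adjusted over all those genes was below 0.05. That scale understates the change of low genes.

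In the base sequence, 10 members carried an ER stress element before their start site, and these windows are shown because they place the classic targets of XBP1 and ATF6 in the set. Of the 39 members, 36 had a 300-base promoter window from RefSeq (GRCh38.p14, 250 bases before the start and 50 after), all but PDIA3, DERL1 and DERL3. The element ERSE, CCAAT and CCACG with 9 free bases between, on either strand, lay in 7 of 36 windows (19.4%), against 0.0806% of all 27305 promoters. ERSE-II, ATTGG and CCACG with 1 free base between, on either strand, lay in 3 of 36 (8.33%), against 0.0549%. Members were chosen by name for this pathway, so higher shares could be foreseen from the choice and are not a finding. Each sequence is given 5′ to 3′ on the gene's strand, with the fixed letters of the element in capitals; a reversed element reads CGTGG before ATTGG or CCAAT.
CALR, chr19:12938379-12938407, plus strand: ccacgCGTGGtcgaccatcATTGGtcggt
CANX, chr5:179698773-179698801, plus strand: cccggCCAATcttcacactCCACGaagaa
HSPA5, chr9:125241386-125241414, minus strand: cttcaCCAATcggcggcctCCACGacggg
HSP90B1, chr12:103930211-103930239, plus strand: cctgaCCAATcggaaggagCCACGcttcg
HSP90B1, chr12:103930316-103930344, plus strand: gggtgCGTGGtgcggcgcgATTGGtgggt
XBP1, chr22:28800598-28800626, minus strand: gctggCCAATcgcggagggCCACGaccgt
CRELD2, chr22:49918549-49918577, plus strand: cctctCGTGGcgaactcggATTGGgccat
SERP1, chr3:150546705-150546733, minus strand: tcatgCGTGGagacagcgaATTGGtgttt
HERPUD1, chr16:56932020-56932040, plus strand: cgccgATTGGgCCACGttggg
SDF2L1, chr22:21642109-21642129, plus strand: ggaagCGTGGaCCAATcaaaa
HYOU1, chr11:119057375-119057395, minus strand: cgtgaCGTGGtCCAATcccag
HYOU1, chr11:119057269-119057289, minus strand: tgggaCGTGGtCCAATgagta
HSP90B1 and HYOU1 held 2 elements each. The core of the hypoxia element, ACGTG, lay in 16 of 36 windows (44.4%), against 21.6% of all promoters, and the forkhead motif TGTTTAC in 0 of 36, against 3.41%. Both were searched on both strands. A match says only that these letters stand there, and the lack of one that they do not.

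By level the set spans a wide range. Calreticulin (CALR) was highest, with a mean over the 6 groups of 345 RPKM, followed by HSP90B1 (244), SEC61B (180.2) and HSPA5 (159 RPKM). The lowest tested member was TXNDC5 at 1.41 RPKM, and DERL3 stood at 0.273 RPKM. Between group means the members differed most in SSR1 (3.42-fold from the lowest to the highest group), ERN1 (3.06-fold) and SSR3 (2.99-fold), and least in SEC63 (1.14-fold) and SPCS2 (1.15-fold). Of the tested members, 8 were called in none of the 9 comparisons of the design: DNAJB11, EDEM2, PDIA6, PDIA3, TXNDC11, SERP1, SEC63 and SPCS2. The share of all tested genes called in none of them was not counted, so nothing particular to the set is read from this number.

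Many members were called with the HIF1A shRNA and few with KC7F2. With shHIF1A against control 11 members rose and 6 fell, 44.7% of 38, near the 42% of all tested genes called in that comparison (25.9% rose, 16.1% fell). Added to FOXA1 knockdown it raised 11 and lowered 7, against 37.5% of all genes (24% rose, 13.5% fell). With KC7F2 against control 0 rose and 0 fell in limma, where 3 of 38 had an unadjusted p below 0.05 and 2.04% of all genes were called (1.05% rose, 0.992% fell). KC7F2 added to FOXA1 knockdown lowered 1 member, CALR, and raised 0, against 4.08% of all genes (1.71% rose, 2.37% fell). FOXA1 knockdown raised 4 and lowered 5 members against control, 23.7%, near the 24.1% of all genes (9.52% rose, 14.6% fell). Within HIF1A knockdown it raised 3 and lowered 4, against 14.5% of all genes (5.27% rose, 9.25% fell). Within KC7F2 it raised 5 and lowered 11, against 32.9% (8.88% rose, 24.1% fell).

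With shHIF1A the median change of the members was 0.01, against 0.07 over all tested genes, and on top of shFOXA1 it was 0.17, against 0.10 over all tested genes. With shFOXA1 it was -0.17, against -0.09 over all tested genes, and within KC7F2 -0.18, against -0.15 over all tested genes. Another scaling moved some splits. With median-ratio scaling the shHIF1A comparison had 7 rises and 10 falls, and its counterpart on shFOXA1 6 rises and 8 falls. FOXA1 knockdown within KC7F2 then had 8 rises and 5 falls (9 and 3 with quantile normalisation). Over all 12900 tested genes, median-ratio scaling gave 2805 rises and 2576 falls with shHIF1A, against 3347 and 2075 as given. Its counterpart on shFOXA1 had 2260 and 2383, against 3096 and 1745. FOXA1 knockdown within KC7F2 had 1875 and 1824 (1712 and 1822 with quantile normalisation), against 1145 and 3105. The median of all genes within KC7F2, -0.15 as given, was 0.00 with median-ratio scaling, and on top of shFOXA1, 0.10 as given, it was -0.01. Single libraries moved counts too. With shFOXA1 against control, 2 fell without control 1 or shFOXA1 1, 3 without shFOXA1 3 and 14 without control 3. With shHIF1A against control, 5 rose without shHIF1A 2 and 10 fell without control 3. On top of shFOXA1, 7 rose without shFOXA1 1 and 6 without shFOXA1 3 or double-shRNA library 1. Within HIF1A knockdown, 2 fell without shHIF1A 2 or double-shRNA library 2 or 3. Within KC7F2, 6 fell without KC7F2 1 or 3 or shFOXA1 plus KC7F2 1 or 2, and 1 fell without the 3 short-gene libraries. For KC7F2 against control, 2 fell without control 1, ERN1 and PPP1R15B, and 1 rose without KC7F2 2, DNAJB9.

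**Figure D1:**
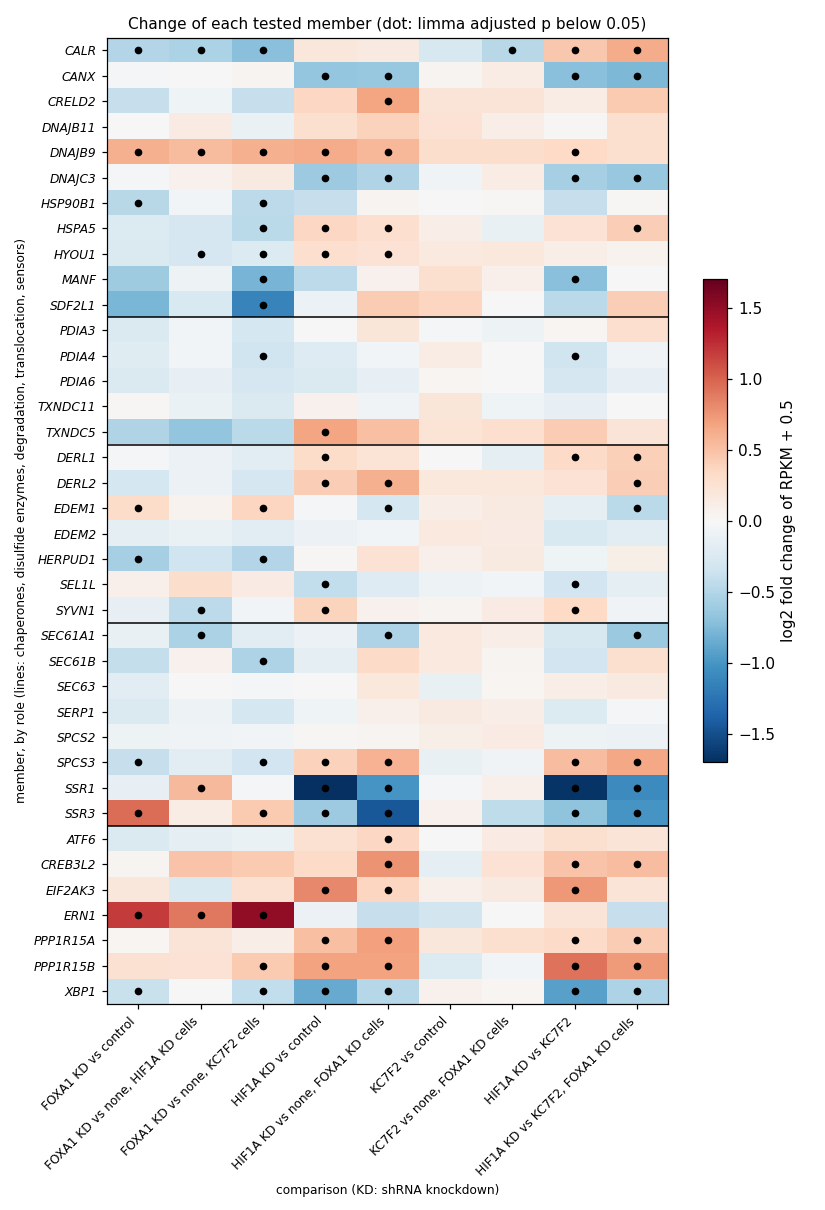
Log2 fold changes (colour, log2(RPKM + 0.5) scale) of the 38 tested members, in rows by role, for 9 comparisons, in columns. The columns are the comparisons of the design without both interactions, and the 2 of the HIF1A shRNA with KC7F2 added after the data were seen. A dot marks an adjusted p below 0.05. The columns of the HIF1A shRNA against control and on top of shFOXA1 hold 17 and 18 dots, and that of KC7F2 against control holds 0.

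In the translocation machinery, SSR1 and SSR3 differed 3.42-fold and 2.99-fold between group means, and SEC63 and SPCS2 the least of all members. SSR1 and SSR3 are subunits of the TRAP complex, which sits at the SEC61 channel and helps some chains to enter. SSR1 (chr6:7268306-7347446, minus strand, GENCODE 29 on GRCh38) was lower wherever the HIF1A shRNA was present. SSR1 was at 9.95, 8.90 and 8.58 RPKM with both shRNAs, 19.9, 20.9 and 19.1 with shFOXA1 plus KC7F2 and 20.5, 18.6 and 17.5 with shFOXA1 alone. SSR1 was at 5.83, 6.21 and 6.26 RPKM with shHIF1A, 19.2, 19.98 and 22.1 in KC7F2-treated control cells and 21.2, 19.7 and 21.6 in control. The HIF1A shRNA libraries, with and without shFOXA1, were all below the other 12. With shHIF1A against control SSR1 fell by 1.69 ± 0.09 (adjusted p = 9.5e-10), to 30.9% of the control level, the largest change of any member in the 9 comparisons. On top of shFOXA1 the same shRNA gave a smaller fall, as SSR1 fell by 1.004 ± 0.09 (adjusted p = 2.18e-07). FOXA1 knockdown within HIF1A knockdown raised it by 0.55 ± 0.09 (adjusted p = 0.000454), whereas against control the change with shFOXA1 was -0.14 ± 0.09 (adjusted p = 0.253). None of these 3 calls was lost under an alternative.

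SSR3 (chr3:156540140-156555184, minus strand) was raised with shFOXA1 against control and within KC7F2, and lowered with the HIF1A shRNA. SSR3 was at 27.4, 25.2 and 22.1 RPKM with both shRNAs, 49.2, 47.4 and 54.3 with shFOXA1 plus KC7F2 and 69.4, 68.7 and 65.7 with shFOXA1 alone. SSR3 was at 21.4, 24.2 and 22.6 RPKM with shHIF1A, 38.1, 31.03 and 42.5 in KC7F2-treated control cells and 47.8, 30.01 and 29.9 in control. The shFOXA1 libraries were above all controls, and SSR3 rose by 0.95 ± 0.15 (adjusted p = 0.000266) with shFOXA1. It fell by 0.61 ± 0.15 (adjusted p = 0.00448) with shHIF1A against control, and fell by 1.44 ± 0.15 (adjusted p = 2.34e-06) when the HIF1A shRNA was added to shFOXA1, to 36.9% of the shFOXA1 level. With KC7F2 added to shFOXA1 the difference was -0.43 ± 0.15 (adjusted p = 0.154). Within HIF1A knockdown SSR3 was not called with shFOXA1, and the groups overlapped. Within KC7F2 SSR3 rose by 0.44 ± 0.15 (adjusted p = 0.0393) with shFOXA1. SSR3 lost this call without KC7F2 1 or 2 or shFOXA1+KC7F2 1, 2 or 3, and with no filter (adjusted p = 0.0612 to 0.149).

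SPCS3, a subunit of the signal peptidase, moved the other way with the HIF1A shRNA. SPCS3 was at 31.3, 27.1 and 22.4 RPKM with both shRNAs, 17.5, 15.6 and 17.1 with shFOXA1 plus KC7F2 and 16.6, 18.3 and 17.5 with shFOXA1 alone. SPCS3 was at 30.6, 31.8 and 29.04 RPKM with shHIF1A, 20.5, 18.8 and 24.2 in KC7F2-treated control cells and 24.8, 21.7 and 23.01 in control. Each HIF1A shRNA group of SPCS3 lay above its counterpart without that shRNA. It rose by 0.39 ± 0.12 (adjusted p = 0.0123) with shHIF1A against control and rose by 0.60 ± 0.12 (adjusted p = 0.00069) on top of shFOXA1, and both calls held under all alternatives run. It fell by 0.40 ± 0.12 (adjusted p = 0.0195) with shFOXA1 against control. SPCS3 lost this call without control 1, shFOXA1 1 or 3 or the 3 short-gene libraries, and with quantile normalisation and in a fit of only the groups compared (adjusted p = 0.0512 to 0.0717). SEC61A1, the channel's main subunit, was lowest with both shRNAs. SEC61A1 was at 76.3, 74.3 and 78.2 RPKM with both shRNAs, 132, 120.4 and 104 with shFOXA1 plus KC7F2 and 108, 106 and 116 with shFOXA1 alone. SEC61A1 was at 113, 127 and 96.1 RPKM with shHIF1A, 132, 146 and 124 in KC7F2-treated control cells and 112, 131 and 116 in control. The 3 double-shRNA libraries of SEC61A1 were below the other 15. It fell by 0.52 ± 0.11 (adjusted p = 0.00168) with the HIF1A shRNA on top of shFOXA1 and fell by 0.54 ± 0.11 (adjusted p = 0.0035) with shFOXA1 within HIF1A knockdown. With shFOXA1 alone it differed from control by -0.13 ± 0.11 (adjusted p = 0.446), and with shHIF1A alone by -0.11 ± 0.11 (adjusted p = 0.486). The interaction of both knockdowns was not called for SEC61A1, so a departure from the sum of both changes was not detected. SEC63, SERP1 and SPCS2 were not called, with SPCS2 at 4.50 to 8.94 RPKM, and SEC61B was called once, as given further on.

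**Figure D2:**
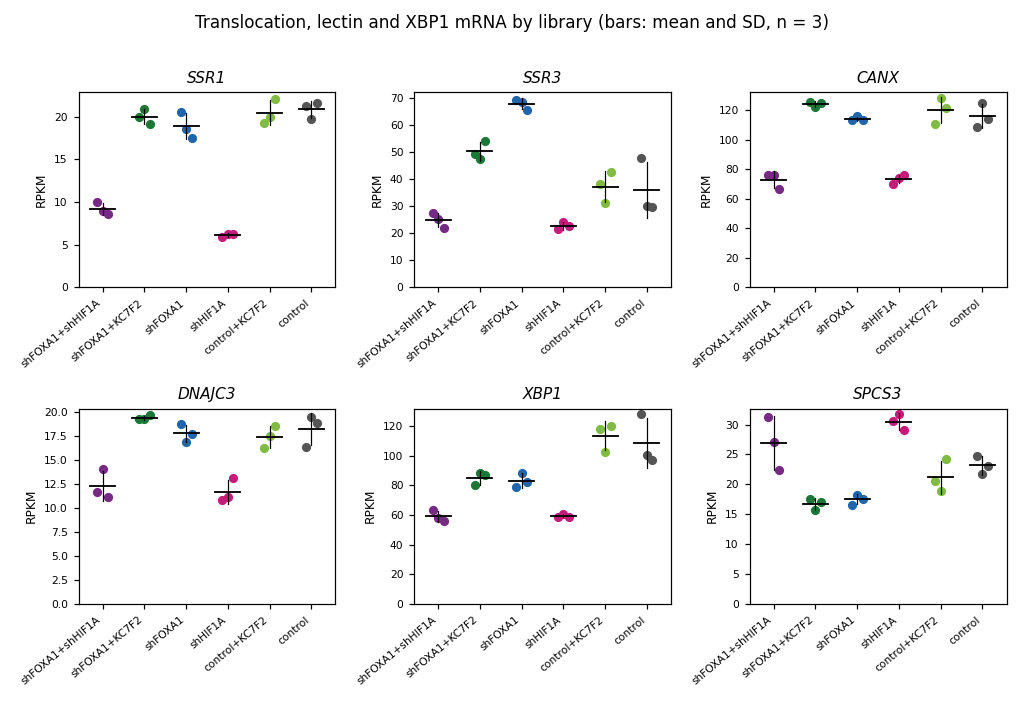
RPKM in each library (points) of SSR1, SSR3, CANX, DNAJC3, XBP1 and SPCS3 by group, with the mean and SD (lines, n = 3). SSR1, CANX, DNAJC3 and XBP1 are lower in both HIF1A shRNA groups than in the other 4, and the group means of SPCS3 are higher there.

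Among chaperones, the lectins parted. Calnexin (CANX), the membrane-bound lectin that holds new glycoproteins, fell with the HIF1A shRNA; calreticulin (CALR), its soluble relative, was lower with the FOXA1 shRNA. CANX was at 76.2, 76.4 and 66.4 RPKM with both shRNAs, 126, 122 and 125 with shFOXA1 plus KC7F2 and 114, 116 and 114 with shFOXA1 alone. CANX was at 70.3, 73.9 and 75.8 RPKM with shHIF1A, 111, 128 and 122 in KC7F2-treated control cells and 109, 125 and 114 in control. All 6 libraries with the HIF1A shRNA lay below the other 12 for CANX. It fell by 0.66 ± 0.09 (adjusted p = 1.51e-05) against control and fell by 0.65 ± 0.09 (adjusted p = 2.03e-05) on top of shFOXA1, with no alternative ending either call. With shFOXA1 alone it differed from control by -0.02 ± 0.09 (adjusted p = 0.899).

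CALR was at 344, 299 and 336 RPKM with both shRNAs, 209, 204 and 219.9 with shFOXA1 plus KC7F2 and 282, 299.5 and 298 with shFOXA1 alone. CALR was at 520.0, 503 and 406 RPKM with shHIF1A, 360.4, 337 and 336 in KC7F2-treated control cells and 463, 442 and 348 in control. The 3 libraries with shFOXA1 plus KC7F2 were below the other 15. CALR fell by 0.50 ± 0.12 (adjusted p = 0.00533) with shFOXA1 against control, where the groups did not overlap. It fell by 0.54 ± 0.12 (adjusted p = 0.00521) with shFOXA1 within HIF1A knockdown, and fell by 0.70 ± 0.12 (adjusted p = 0.000305) within KC7F2, both under all alternatives run; against control the call was lost in a fit of only the groups compared (adjusted p = 0.0793). CALR was the 1 member called with KC7F2 on top of shFOXA1, where it fell by 0.47 ± 0.12 (adjusted p = 0.0321). CALR lost this call without shFOXA1 1, 2 or 3 or shFOXA1+KC7F2 1, 2 or 3, and with no filter (adjusted p = 0.062 to 0.124). With KC7F2 against control its difference was -0.27 ± 0.12 (adjusted p = 0.368).

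DNAJC3 (p58IPK) and DNAJB9 (ERdj4) are J-domain partners of HSPA5; the first also inhibits PERK, and the second restrains ERN1. DNAJC3 was at 11.7, 14.1 and 11.1 RPKM with both shRNAs, 19.2, 19.3 and 19.6 with shFOXA1 plus KC7F2 and 18.7, 16.9 and 17.6 with shFOXA1 alone. DNAJC3 was at 10.8, 11.1 and 13.1 RPKM with shHIF1A, 16.2, 17.5 and 18.5 in KC7F2-treated control cells and 16.4, 19.4 and 18.8 in control. The 6 HIF1A shRNA libraries of DNAJC3 lay below the other 12. It fell by 0.62 ± 0.10 (adjusted p = 0.000143) against control and fell by 0.52 ± 0.10 (adjusted p = 0.000858) on top of shFOXA1, under every alternative run. DNAJB9 rose with either shRNA and was highest with both. DNAJB9 was at 21.4, 20.9 and 18.8 RPKM with both shRNAs, 17.1, 17.1 and 15.9 with shFOXA1 plus KC7F2 and 12.7, 14.3 and 13.6 with shFOXA1 alone. DNAJB9 was at 13.8, 14.7 and 13.03 RPKM with shHIF1A, 11.2, 8.79 and 12.9 in KC7F2-treated control cells and 9.74, 8.40 and 8.10 in control. The double-shRNA libraries were above all others. DNAJB9 rose by 0.60 ± 0.12 (adjusted p = 0.00112) with shFOXA1 and rose by 0.63 ± 0.12 (adjusted p = 0.000389) with shHIF1A against control. It rose by 0.57 ± 0.12 (adjusted p = 0.00111) with the HIF1A shRNA on top of shFOXA1. Within HIF1A knockdown DNAJB9 rose by 0.54 ± 0.12 (adjusted p = 0.00473) with shFOXA1, and within KC7F2 it rose by 0.60 ± 0.12 (adjusted p = 0.00106). The interaction of the 2 knockdowns was -0.06 ± 0.17 (adjusted p = 0.868). All 5 calls held under every alternative run.

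HSPA5 (BiP), the main chaperone of the lumen and the brake on all 3 sensors, was called in 3 comparisons, each with a change below 0.5 in size. HSPA5 was at 180.5, 159.8 and 155 RPKM with both shRNAs, 121, 121 and 129 with shFOXA1 plus KC7F2 and 123, 142 and 139 with shFOXA1 alone. HSPA5 was at 207, 208 and 189.5 RPKM with shHIF1A, 167, 162 and 182 in KC7F2-treated control cells and 179, 164 and 133 in control. The 3 shHIF1A libraries were above the other 15. Against control HSPA5 rose by 0.35 ± 0.11 (adjusted p = 0.016) with shHIF1A. HSPA5 lost this call without control 3 or shHIF1A 1 or 2, and in a fit of only the groups compared (adjusted p = 0.0506 to 0.13). HSPA5 rose by 0.29 ± 0.11 (adjusted p = 0.0462) on top of shFOXA1. HSPA5 lost this call without shFOXA1 1, 2 or 3 or shFOXA1+shHIF1A 1, 2 or 3, and with no filter, with median-ratio scaling and with robust eBayes (adjusted p = 0.0508 to 0.18). Within KC7F2 it fell by 0.46 ± 0.11 (adjusted p = 0.00423) with shFOXA1. HSPA5 lost this call without the 3 short-gene libraries, and with quantile normalisation (adjusted p = 0.0778 to 0.556). With shFOXA1 against control the difference was -0.23 ± 0.11 (adjusted p = 0.147).

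**Figure D3:**
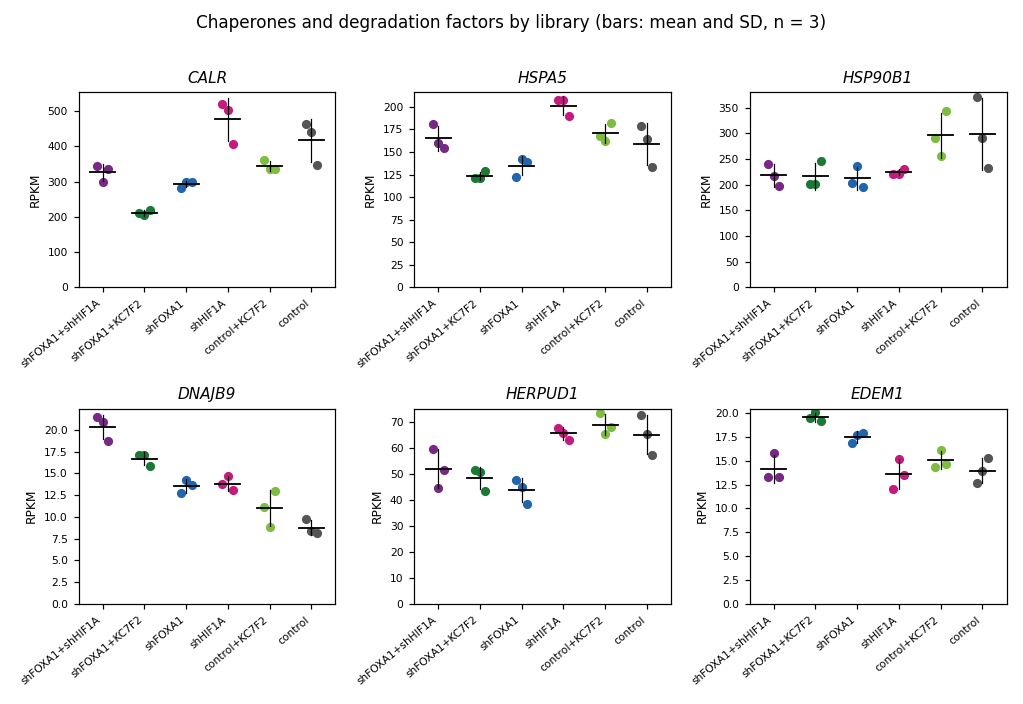
RPKM in each library (points) of CALR, HSPA5, HSP90B1, DNAJB9, HERPUD1 and EDEM1 by group, with the mean and SD (lines, n = 3). DNAJB9 is highest with both shRNAs, CALR is lowest with shFOXA1 plus KC7F2, and HERPUD1 is below control in the shFOXA1 libraries.

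The other chaperones were called in few comparisons. HYOU1 (GRP170, an exchange factor of HSPA5) rose by 0.29 ± 0.09 (adjusted p = 0.016) with shHIF1A against control. HYOU1 lost this call without control 3 or shHIF1A 2, and in a fit of only the groups compared and with the length trend removed (adjusted p = 0.0728 to 0.165). HSP90B1 (GRP94) fell by 0.47 ± 0.16 (adjusted p = 0.0384) with shFOXA1, at 204, 237 and 196 RPKM against 371, 290.5 and 232 in control, where the groups overlap. HSP90B1 lost this call without control 1 or 2, shFOXA1 1 or 3 or the 3 short-gene libraries, and with no filter and in a fit of only the groups compared (adjusted p = 0.0809 to 0.183). Within KC7F2, SDF2L1, a co-factor of HSPA5 complexes, was at 25.1, 19.8 and 33.8 RPKM with shFOXA1, against 62.95, 44.6 and 65.6 without. It fell by 1.13 ± 0.29 (adjusted p = 0.00699). SDF2L1 lost this call without the 3 short-gene libraries (adjusted p = 0.188). MANF, a secreted stress-induced factor, was at 56.7, 55.1 and 68.02 RPKM with shFOXA1 within KC7F2, against 118, 79.2 and 120.1 without, and fell by 0.80 ± 0.21 (adjusted p = 0.00978). MANF lost this call without the 3 short-gene libraries (adjusted p = 0.161). With the length trend removed both calls were kept, at -0.93 (adjusted p = 0.00478) for SDF2L1 and -0.62 (adjusted p = 0.00798) for MANF, and no other alternative ended either.

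The 5 disulfide enzymes had 2 calls in the 9 comparisons. PDIA3 (ERp57), which works with the lectins on glycoproteins, was at 89.1 to 155 RPKM over the 18 libraries, and PDIA6, which also tempers ERN1, at 38.6 to 60.7 RPKM. Neither was called; the largest difference of PDIA3 by size of p was -0.30 ± 0.14 (adjusted p = 0.111), within KC7F2 with shFOXA1, and that of PDIA6 -0.29 ± 0.13 (adjusted p = 0.104) there too. Exons of PDIA6 overlap an antisense gene, ATP6V1C2, over 25.2% of their bases, and those of PDIA3 overlap ELL3 over 14.8%, which matters if counting ignored strand. PDIA4 was at 84.5, 77.8 and 73.1 RPKM with both shRNAs, 79.99, 79.96 and 84.1 with shFOXA1 plus KC7F2 and 76.6, 84.4 and 83.04 with shFOXA1 alone. PDIA4 was at 83.5, 84.98 and 74.2 RPKM with shHIF1A, 105, 99.6 and 104 in KC7F2-treated control cells and 107, 101 and 76.9 in control. Its libraries with shFOXA1 plus KC7F2 were below those of KC7F2-treated control cells, and PDIA4 (ERp72) fell by 0.33 ± 0.11 (adjusted p = 0.0281) with shFOXA1 within KC7F2. PDIA4 lost this call without KC7F2 1 or 3, shFOXA1+KC7F2 1 or 2 or the 3 short-gene libraries, and with median-ratio scaling, with quantile normalisation and with the length trend removed (adjusted p = 0.0629 to 0.872). TXNDC5 was at 0.966, 1.46 and 1.49 RPKM with both shRNAs, 0.622, 1.24 and 1.34 with shFOXA1 plus KC7F2 and 0.446, 1.31 and 0.664 with shFOXA1 alone. TXNDC5 was at 2.14, 2.48 and 2.41 RPKM with shHIF1A, 1.77, 1.80 and 1.27 in KC7F2-treated control cells and 1.23, 1.28 and 1.36 in control. Its shHIF1A libraries were above those of control, and TXNDC5 rose by 0.66 ± 0.23 (adjusted p = 0.0307) with shHIF1A against control. TXNDC5 lost this call without control 1, 2 or 3, shHIF1A 2 or 3 or the 3 short-gene libraries, and with a pseudocount of 0.1, with no filter, with median-ratio scaling and with quantile normalisation (adjusted p = 0.0517 to 0.0871). At so low a level it rests on few reads, and 60.6% of its exon bases are shared with the read-through gene BLOC1S5-TXNDC5, listed at 0 in all 18 libraries.

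In degradation, HERPUD1, a membrane scaffold of the retrotranslocation complex, was lower with the FOXA1 shRNA. HERPUD1 was at 59.7, 44.8 and 51.7 RPKM with both shRNAs, 51.4, 50.7 and 43.6 with shFOXA1 plus KC7F2 and 47.6, 44.99 and 38.6 with shFOXA1 alone. HERPUD1 was at 67.9, 65.9 and 63.1 RPKM with shHIF1A, 73.5, 65.3 and 68.2 in KC7F2-treated control cells and 72.6, 65.5 and 57.5 in control. With shFOXA1 against control the groups did not overlap, and HERPUD1 fell by 0.57 ± 0.12 (adjusted p = 0.00203) under every alternative run. Within KC7F2 it fell by 0.50 ± 0.12 (adjusted p = 0.00402). HERPUD1 lost this call without the 3 short-gene libraries, and with quantile normalisation (adjusted p = 0.1 to 0.195). SEL1L, the adaptor of the HRD1 ligase, fell by 0.42 ± 0.11 (adjusted p = 0.00478) with shHIF1A against control. SEL1L was at 14.6, 15.5 and 14.5 RPKM with both shRNAs, 16.5, 16.4 and 17.3 with shFOXA1 plus KC7F2 and 17.1, 16.3 and 18.6 with shFOXA1 alone. SEL1L was at 10.4, 12.8 and 12.9 RPKM with shHIF1A, 13.6, 16.8 and 15.4 in KC7F2-treated control cells and 14.5, 16.1 and 18.3 in control. The shHIF1A libraries of SEL1L lay below all 3 controls. On top of shFOXA1 its difference was -0.21 ± 0.11 (adjusted p = 0.13).

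DERL2, a subunit of the derlin channel, was higher with the HIF1A shRNA. DERL2 was at 8.80, 10.5 and 9.70 RPKM with both shRNAs, 6.97, 8.40 and 6.06 with shFOXA1 plus KC7F2 and 5.87, 7.36 and 5.46 with shFOXA1 alone. DERL2 was at 9.77, 10.3 and 11.2 RPKM with shHIF1A, 9.32, 7.11 and 10.02 in KC7F2-treated control cells and 9.04, 7.41 and 6.76 in control. Neither HIF1A shRNA group overlapped its counterpart without that shRNA. DERL2 rose by 0.60 ± 0.15 (adjusted p = 0.0046) on top of shFOXA1 under every alternative run. Against control it rose by 0.41 ± 0.15 (adjusted p = 0.0348). DERL2 lost this call without control 2 or 3 or shHIF1A 2 or 3, and with no filter, with median-ratio scaling, with quantile normalisation and with the length trend removed (adjusted p = 0.0734 to 0.122). EDEM1, a mannosidase-like protein that hands misfolded glycoproteins on, was highest with shFOXA1 plus KC7F2. EDEM1 was at 13.3, 15.8 and 13.3 RPKM with both shRNAs, 19.5, 20.1 and 19.2 with shFOXA1 plus KC7F2 and 16.8, 17.7 and 17.9 with shFOXA1 alone. EDEM1 was at 12.04, 15.2 and 13.5 RPKM with shHIF1A, 14.4, 16.1 and 14.7 in KC7F2-treated control cells and 12.6, 13.9 and 15.3 in control. The 3 libraries with shFOXA1 plus KC7F2 lay above the other 15. EDEM1 rose by 0.32 ± 0.10 (adjusted p = 0.0303) with shFOXA1 against control. EDEM1 lost this call without control 1 or 2, shFOXA1 2 or 3 or the 3 short-gene libraries, and in a fit of only the groups compared (adjusted p = 0.0681 to 0.135). Within KC7F2 it rose by 0.37 ± 0.10 (adjusted p = 0.0107). EDEM1 lost this call without the 3 short-gene libraries (adjusted p = 0.223). The HIF1A shRNA on top of shFOXA1 lowered EDEM1, which fell by 0.30 ± 0.10 (adjusted p = 0.0269). EDEM1 lost this call without shFOXA1 2 or 3 or shFOXA1+shHIF1A 1 or 3 (adjusted p = 0.0677 to 0.0948).

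SYVN1 (HRD1), the ubiquitin ligase of this pathway, had calls in opposite directions that share the shHIF1A libraries. These were at 29.3, 32.3 and 32.1 RPKM, against 22.15, 24.6 and 25.01 in control. SYVN1 was at 23.6, 22.3 and 22.55 RPKM with both shRNAs and 22.6, 21.7 and 20.7 with shFOXA1. It rose by 0.38 ± 0.12 (adjusted p = 0.0196) with shHIF1A against control and fell by 0.44 ± 0.12 (adjusted p = 0.0213) with shFOXA1 within HIF1A knockdown. SYVN1 lost the first call without control 1 or shHIF1A 2 or 3, and with median-ratio scaling and with quantile normalisation (adjusted p = 0.0565 to 0.143). SYVN1 lost the second call without shHIF1A 2 or 3 or shFOXA1+shHIF1A 2 or 3, and with median-ratio scaling and with quantile normalisation (adjusted p = 0.0514 to 0.106). FAU, on the same strand, overlaps 7.2% of the exon bases of SYVN1, and its part in both calls was not tested. DERL1 rose by 0.31 ± 0.11 (adjusted p = 0.0312) with shHIF1A against control. DERL1 lost this call without control 1, shHIF1A 2 or the 3 short-gene libraries, and with no filter, with median-ratio scaling, with quantile normalisation and in a fit of only the groups compared (adjusted p = 0.0508 to 0.203). EDEM2 was not called, at 5.80 to 10.9 RPKM.

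The sensors moved apart. ERN1 (chr17:64039142-64130819, minus strand), the sensor that splices XBP1, rose with the FOXA1 shRNA in each background. ERN1 was at 7.51, 9.71 and 9.51 RPKM with both shRNAs, 10.97, 14.1 and 10.5 with shFOXA1 plus KC7F2 and 11.5, 12.1 and 11.6 with shFOXA1 alone. ERN1 was at 4.52, 4.11 and 4.94 RPKM with shHIF1A, 3.51, 4.83 and 3.27 in KC7F2-treated control cells and 2.81, 6.08 and 6.51 in control. All 9 libraries with the FOXA1 shRNA lay above the other 9. ERN1 rose by 1.19 ± 0.22 (adjusted p = 0.000778) with shFOXA1 against control, 2.29-fold on the log2(RPKM + 0.5) scale. Within KC7F2 it rose by 1.501 ± 0.22 (adjusted p = 9.23e-05), and both calls held under every alternative run. Within HIF1A knockdown ERN1 rose by 0.90 ± 0.22 (adjusted p = 0.011). ERN1 lost this call without shHIF1A 2 (adjusted p = 0.0502). The interaction of both knockdowns was -0.29 ± 0.31 (adjusted p = 0.639), so a difference in the size of the rise was not detected.

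XBP1 (chr22:28794555-28800597, minus strand), the target of ERN1, was lower with either shRNA. XBP1 was at 63.2, 58.2 and 55.8 RPKM with both shRNAs, 79.9, 88.2 and 86.9 with shFOXA1 plus KC7F2 and 78.6, 88.4 and 82.01 with shFOXA1 alone. XBP1 was at 58.6, 60.5 and 58.8 RPKM with shHIF1A, 118, 102 and 119.9 in KC7F2-treated control cells and 128, 101 and 97.3 in control. All 6 HIF1A shRNA libraries were below the other 12. XBP1 fell by 0.86 ± 0.10 (adjusted p = 8.23e-06) with shHIF1A against control, to 55.2% of the control level, and fell by 0.49 ± 0.10 (adjusted p = 0.00165) on top of shFOXA1, under every alternative run. XBP1 also fell by 0.38 ± 0.10 (adjusted p = 0.0151) with shFOXA1 against control. XBP1 lost this call without control 1, shFOXA1 1 or the 3 short-gene libraries, and with quantile normalisation and in a fit of only the groups compared (adjusted p = 0.0551 to 0.13). Within KC7F2 it fell by 0.41 ± 0.10 (adjusted p = 0.00697) with shFOXA1. XBP1 lost this call without the 3 short-gene libraries, and with median-ratio scaling and with quantile normalisation (adjusted p = 0.0537 to 0.359). Values per gene do not separate spliced from unspliced XBP1, so the activity of ERN1 was not measured.

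EIF2AK3 (PERK; chr2:88556741-88627576, minus strand) was higher with the HIF1A shRNA. EIF2AK3 was at 10.6, 7.80 and 7.81 RPKM with both shRNAs, 6.74, 8.36 and 7.17 with shFOXA1 plus KC7F2 and 6.17, 6.91 and 6.74 with shFOXA1 alone. EIF2AK3 was at 9.65, 11.3 and 10.6 RPKM with shHIF1A, 5.45, 6.13 and 6.79 in KC7F2-treated control cells and 5.59, 5.999 and 5.63 in control. The 3 shHIF1A libraries were above those of control and all double-shRNA ones above shFOXA1. EIF2AK3 rose by 0.82 ± 0.12 (adjusted p = 5.36e-05) against control, under every alternative run. On top of shFOXA1 it rose by 0.37 ± 0.12 (adjusted p = 0.0255). EIF2AK3 lost this call without shFOXA1 1 or 3 or shFOXA1+shHIF1A 1, and with median-ratio scaling, with quantile normalisation and in a fit of only the groups compared (adjusted p = 0.05 to 0.142). Antisense exons overlap 14.4% of its exon bases. ATF6, the sensor that is itself a transcription factor, varied little. ATF6 was at 8.75, 7.42 and 7.81 RPKM with both shRNAs, 7.35, 6.83 and 6.23 with shFOXA1 plus KC7F2 and 6.85, 5.62 and 6.02 with shFOXA1 alone. ATF6 was at 7.60, 9.57 and 9.90 RPKM with shHIF1A, 7.19, 8.33 and 6.63 in KC7F2-treated control cells and 6.23, 7.81 and 8.25 in control. The double-shRNA libraries were above those with shFOXA1, while shHIF1A and control overlapped. ATF6 rose by 0.35 ± 0.13 (adjusted p = 0.0415) with the HIF1A shRNA on top of shFOXA1. ATF6 lost this call without shFOXA1 2 or 3 or shFOXA1+shHIF1A 1 or 3, and with no filter, with median-ratio scaling and with quantile normalisation (adjusted p = 0.0721 to 0.212). With shHIF1A against control its difference was 0.26 ± 0.13 (adjusted p = 0.112).

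PPP1R15A (GADD34) and PPP1R15B (CReP) direct a phosphatase to eIF2α and so reverse the signal of PERK; the first is induced by stress and the second constitutive. Both rose with the HIF1A shRNA. PPP1R15A was at 9.15, 9.001 and 8.36 RPKM with both shRNAs, 6.57, 6.02 and 6.75 with shFOXA1 plus KC7F2 and 4.52, 5.57 and 5.68 with shFOXA1 alone. PPP1R15A was at 8.47, 6.72 and 7.46 RPKM with shHIF1A, 5.80, 5.96 and 6.02 in KC7F2-treated control cells and 5.91, 5.18 and 4.39 in control. Neither HIF1A shRNA group overlapped its counterpart without that shRNA. PPP1R15A rose by 0.51 ± 0.11 (adjusted p = 0.00186) against control and rose by 0.70 ± 0.11 (adjusted p = 0.000142) on top of shFOXA1. PPP1R15B was at 48.6, 46.7 and 45.3 RPKM with both shRNAs, 28.3, 27.5 and 28.7 with shFOXA1 plus KC7F2 and 28.5, 27.4 and 31.4 with shFOXA1 alone. PPP1R15B was at 38.1, 37.6 and 42.8 RPKM with shHIF1A, 19.8, 22.04 and 19.9 in KC7F2-treated control cells and 20.7, 25.4 and 27.03 in control. The 6 HIF1A shRNA libraries of PPP1R15B were above the other 12. It rose by 0.69 ± 0.10 (adjusted p = 3.64e-05) against control and rose by 0.68 ± 0.10 (adjusted p = 4.92e-05) on top of shFOXA1. These 4 calls held under every alternative run. With shFOXA1 within KC7F2 PPP1R15B rose by 0.44 ± 0.10 (adjusted p = 0.0027). PPP1R15B lost this call without the 3 short-gene libraries (adjusted p = 0.0561). CREB3L2, a transcription factor of the same membrane-bound type as ATF6, was at 12.9, 14.2 and 13.2 RPKM with both shRNAs, against 7.64, 7.08 and 8.43 with shFOXA1. It rose by 0.77 ± 0.18 (adjusted p = 0.00322) under every alternative run.

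**Figure D4:**
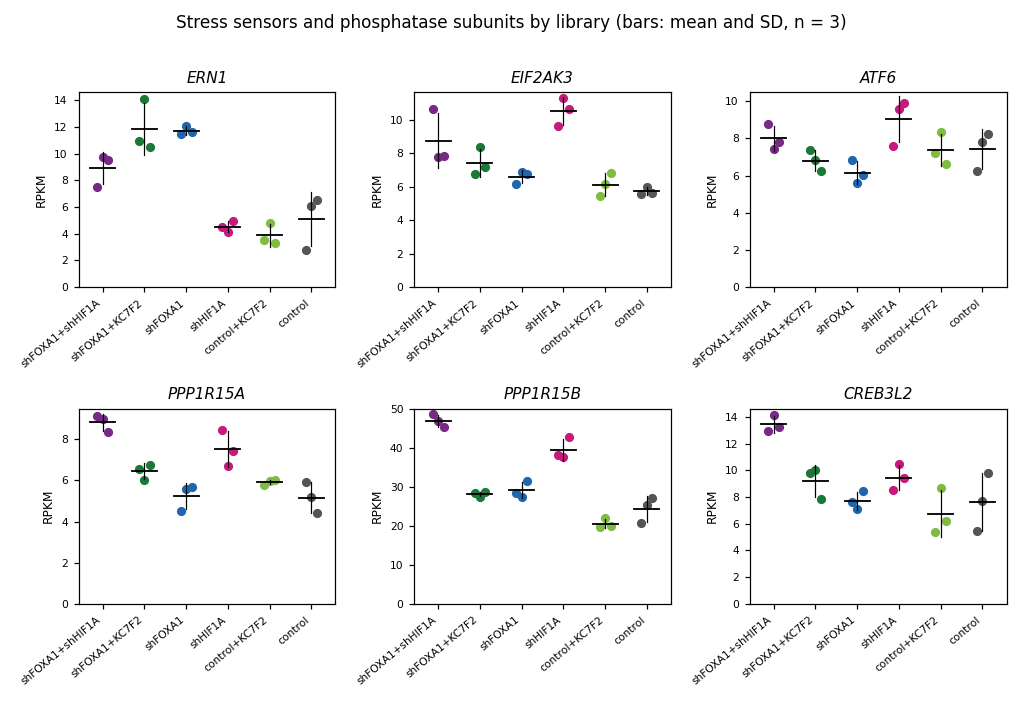
RPKM in each library (points) of ERN1, EIF2AK3, ATF6, PPP1R15A, PPP1R15B and CREB3L2 by group, with the mean and SD (lines, n = 3). ERN1 is higher in the 3 groups with the FOXA1 shRNA, and PPP1R15B in both groups with the HIF1A shRNA.

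The remaining calls each depended on a library or a setting. On top of shFOXA1, CRELD2, a chaperone-like disulfide isomerase, rose by 0.66 ± 0.23 (adjusted p = 0.035) and HYOU1 rose by 0.24 ± 0.09 (adjusted p = 0.0423) with the HIF1A shRNA. CRELD2 lost this call without shFOXA1 1 or 3 or shFOXA1+shHIF1A 1 or 3, and with no filter and with median-ratio scaling (adjusted p = 0.0531 to 0.167). HYOU1 lost this call without shFOXA1 1, 2 or 3 or shFOXA1+shHIF1A 1, 2 or 3, and with median-ratio scaling, with quantile normalisation, with robust eBayes and with the length trend removed (adjusted p = 0.0516 to 0.211). Within HIF1A knockdown HYOU1 fell by 0.29 ± 0.09 (adjusted p = 0.0387) with shFOXA1. HYOU1 lost this call without shHIF1A 1 or 2 or shFOXA1+shHIF1A 1, 2 or 3, and with quantile normalisation and in a fit of only the groups compared (adjusted p = 0.0629 to 0.169). Within KC7F2 HSP90B1 fell by 0.45 ± 0.16 (adjusted p = 0.0354), HYOU1 fell by 0.24 ± 0.09 (adjusted p = 0.0491), SEC61B fell by 0.53 ± 0.19 (adjusted p = 0.0459) and SPCS3 fell by 0.32 ± 0.12 (adjusted p = 0.0404) with shFOXA1. HSP90B1 lost this call without KC7F2 1 or 3, shFOXA1+KC7F2 1 or 2 or the 3 short-gene libraries, and with no filter, with median-ratio scaling and with quantile normalisation (adjusted p = 0.0801 to 0.409). HYOU1 lost this call without KC7F2 1, 2 or 3, shFOXA1+KC7F2 1, 2 or 3 or the 3 short-gene libraries, and with median-ratio scaling, with quantile normalisation and with robust eBayes (adjusted p = 0.0592 to 0.522). SEC61B lost this call without KC7F2 1 or 3, shFOXA1+KC7F2 1 or 2 or the 3 short-gene libraries, and with no filter, with median-ratio scaling, with quantile normalisation and with the length trend removed (adjusted p = 0.0696 to 0.568). SPCS3 lost this call without KC7F2 1 or 3, shFOXA1+KC7F2 1, 2 or 3 or the 3 short-gene libraries, and with no filter, with median-ratio scaling, with quantile normalisation and in a fit of only the groups compared (adjusted p = 0.0536 to 0.524).

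The 10 members with an ER stress element went in both directions with the HIF1A shRNA: against control CANX and XBP1 fell while HSPA5 and HYOU1 rose. With shFOXA1 against control 4 of the 10 fell, CALR, HSP90B1, HERPUD1 and XBP1, and 0 rose; of the 26 tested members whose window held no element, 1 fell and 4 rose. Among all tested genes 14.6% fell and 9.52% rose there. The median change of the 10 was -0.38, against -0.11 in those 26. It was -0.23, against -0.12, without the 3 short-gene libraries and -0.21, against 0.02, with quantile normalisation. Within KC7F2, 7 of the 10 fell with shFOXA1 and 0 rose, against 4 falls and 5 rises in the 26, where 24.1% of all genes fell and 8.88% rose. Without the 3 short-gene libraries the falls of the 10 numbered 2 against control and 1 within KC7F2, with quantile normalisation 3 and 2, and with median-ratio scaling 4 and 4. With the length trend removed they were 6 and 8, and those of the 26 were 5 and 2. This grouping was made after the values were seen and is a description.

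With KC7F2 against control, SSR1 differed by -0.03 ± 0.09 (adjusted p = 0.919), XBP1 by 0.07 ± 0.10 (adjusted p = 0.834), CANX by 0.05 ± 0.09 (adjusted p = 0.845) and PPP1R15B by -0.23 ± 0.10 (adjusted p = 0.341). To set the HIF1A shRNA beside KC7F2, both groups were compared directly, a comparison added after the data were seen. With shHIF1A against KC7F2-treated control cells 9 members rose and 8 fell, against 42.6% of all tested genes (23% rose, 19.6% fell). SSR1 fell by 1.66 ± 0.09 (adjusted p = 8.83e-10), XBP1 fell by 0.93 ± 0.10 (adjusted p = 3.55e-06), CANX fell by 0.71 ± 0.09 (adjusted p = 6.68e-06) and DNAJC3 fell by 0.56 ± 0.10 (adjusted p = 0.000366). PPP1R15B rose by 0.92 ± 0.10 (adjusted p = 1.84e-06), EIF2AK3 rose by 0.74 ± 0.12 (adjusted p = 0.000141) and SPCS3 rose by 0.52 ± 0.12 (adjusted p = 0.00171). CALR rose by 0.46 ± 0.12 (adjusted p = 0.00495) in the same comparison. Between the same agents on top of shFOXA1, 8 members rose and 7 fell with the HIF1A shRNA, against 36.6% of all genes (23.4% rose, 13.2% fell). There SSR1 fell by 1.09 ± 0.09 (adjusted p = 1.04e-07), SSR3 fell by 1.005 ± 0.15 (adjusted p = 9.21e-05), CANX fell by 0.77 ± 0.09 (adjusted p = 3.45e-06) and XBP1 fell by 0.52 ± 0.10 (adjusted p = 0.000983), while CALR rose by 0.63 ± 0.12 (adjusted p = 0.000582) and PPP1R15B rose by 0.73 ± 0.10 (adjusted p = 2.5e-05). The calls named here held under every alternative run. Counts moved: against KC7F2-treated control cells 5 rose without shHIF1A 2, 4 without KC7F2 1, and 5 rose and 5 fell without KC7F2 3.

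Whether the effects of both knockdowns added up was tested by their interaction, in which 1 member was above and 1 below 0, against 7.61% of all genes called (3.16% above, 4.45% below). SSR1 had an interaction of 0.69 ± 0.12 (adjusted p = 0.00212): its change with the HIF1A shRNA was -1.004 ± 0.09 on top of shFOXA1 and -1.69 ± 0.09 against control. SSR3 had one of -0.82 ± 0.22 (adjusted p = 0.0293), with changes of -1.44 ± 0.15 and -0.61 ± 0.15 in the same order. SSR3 lost this call without control 2 or 3, shHIF1A 2 or 3, shFOXA1 1, 2 or 3 or shFOXA1+shHIF1A 2 or 3, and with no filter and in a fit of only the groups compared (adjusted p = 0.0518 to 0.0759). The count below 0 was 2 without double-shRNA library 1. The interaction of shFOXA1 and KC7F2 called 0 members in limma, with 1 of 38 at an unadjusted p below 0.05, against 0.0775% of all genes (0.0155% above, 0.062% below).

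Other genes of the pathway, taken from lists of related factors, are read against the 24.1% of all tested genes called with shFOXA1 and the 42% called with shHIF1A. The share called with shFOXA1 was 40% of the other disulfide enzymes and oxidases, 23.1% of the other translocation genes, 20% of the oligosaccharyltransferase genes, 42.9% of the PERK arm, 28.6% of the other ER-bound factors, and 0% of the other degradation genes and of the calcium and lectin cycle. With shHIF1A the shares, in the same order, were 50%, 53.8%, 40%, 42.9%, 57.1%, 53.8% and 25%. With 7 to 13 genes a list, nothing particular to a list is read from these shares. Among 10 other disulfide enzymes and oxidases, 1 rose and 3 fell with shFOXA1 against control, and 2 rose and 3 fell with shHIF1A. ERO1A, the oxidase that recharges PDI and a known hypoxia target, was at 13.98, 12.96 and 11.02 RPKM with both shRNAs, 30.8, 30.2 and 30.3 with shFOXA1, 4.76, 5.78 and 5.75 with shHIF1A and 8.93, 9.22 and 9.20 in control. It rose by 1.69 ± 0.11 (adjusted p = 7.33e-09) with shFOXA1, fell by 0.70 ± 0.11 (adjusted p = 6.58e-05) with shHIF1A, and fell by 1.24 ± 0.11 (adjusted p = 1.88e-07) with the HIF1A shRNA on top of shFOXA1. PDIA5 fell by 1.13 ± 0.12 (adjusted p = 3.13e-06) with shFOXA1, and TMX3, a membrane-bound PDI, fell by 0.76 ± 0.10 (adjusted p = 2.32e-05) with shHIF1A. Among 13 other translocation genes, 0 rose and 3 fell with shFOXA1, and 2 rose and 5 fell with shHIF1A, among them SRPRB, a subunit of the signal recognition particle receptor, which fell by 0.60 ± 0.10 (adjusted p = 0.000104). Of 10 oligosaccharyltransferase genes, 0 rose and 2 fell with shFOXA1, and 1 rose and 3 fell with shHIF1A. MAGT1, an oxidoreductase subunit of that enzyme, fell by 1.65 ± 0.11 (adjusted p = 1.94e-08) with shHIF1A and fell by 1.06 ± 0.11 (adjusted p = 2.13e-06) on top of shFOXA1.

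Of 13 other degradation genes 6 rose and 1 fell with shHIF1A against control; ERLIN2 fell by 0.81 ± 0.09 (adjusted p = 2.3e-06), and EDEM3, a mannosidase related to EDEM1, rose by 0.83 ± 0.13 (adjusted p = 9.42e-05). With shFOXA1 0 of these 13 were called in limma, with 2 at an unadjusted p below 0.05. Of 7 tested ER-bound factors besides the members, 4 rose and 0 fell with shHIF1A, led by WFS1, which rose by 0.92 ± 0.12 (adjusted p = 2.2e-05), and ATF6B, a relative of ATF6, which rose by 0.72 ± 0.12 (adjusted p = 0.000157). CREB3L4, an androgen-responsive relative in prostate, fell by 0.67 ± 0.12 (adjusted p = 0.000479) with shFOXA1. Of 8 genes of the calcium and lectin cycle, 1 rose and 1 fell with shHIF1A and 0 were called with shFOXA1, where 0 had an unadjusted p below 0.05. In the PERK arm, 0 of 7 rose and 3 fell with shFOXA1, and 1 rose and 2 fell with shHIF1A. EIF2S1, the eIF2α subunit itself, fell by 0.70 ± 0.10 (adjusted p = 7.88e-05) and TRIB3, a target of this arm, fell by 0.68 ± 0.10 (adjusted p = 0.000129) with shFOXA1. ATF4, the factor translated when eIF2α is phosphorylated, fell by 0.55 ± 0.13 (adjusted p = 0.00242) with shHIF1A. Added to shFOXA1, KC7F2 raised 2 and lowered 0 of the 7 PERK arm genes, against 4.08% of all genes called (1.71% rose, 2.37% fell). DDIT3 (CHOP), a target of ATF4, was at 23.6, 22.3 and 25.4 RPKM with shFOXA1 plus KC7F2, against 9.26, 12.2 and 13.8 with shFOXA1. It was at 33.4, 23.4 and 28.99 RPKM in KC7F2-treated control cells and 22.4, 21.9 and 12.1 in control. With KC7F2 added to shFOXA1 DDIT3 rose by 1.001 ± 0.20 (adjusted p = 0.00938). DDIT3 lost this call without shFOXA1 1 (adjusted p = 0.0595).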

How the data were processed

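RNA from 18 LNCaP libraries in 6 groups of 3 was sequenced after NEBNext Ultra preparation of total RNA, per the labels' protocols. The authors deposited 1 table of RPKM values per gene. The submitters' processing notes name STAR and the build hg38. Counter, annotation and strandedness: not given in the sources used here. Of 26475 lines, 32 held no value, and 0 columns were left unmapped. Depth was recovered from whole-read steps in the RPKM of genes up to 200 nt, where 73.9 to 86.2% of low values were whole within 2%. Low genes therefore rest on few reads.

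Tests ran on log2(RPKM + 0.5). A gene needed 1 RPKM or more in 3 or more libraries, which 12900 met. limma 3.58.1 in R 4.3.3 (eBayes with trend, two-sided) fitted 1 model to all 6 groups (12 residual df), with Benjamini-Hochberg adjustment within each comparison. Simulated data of this size were set up as FOXA1 knockdown against control. The fit found 31 of 71 genes changed 1.5-fold, 63 of 72 changed 2-fold and 54 of 57 changed 4-fold, with 13 false calls over its 12203 genes. The changed genes left out those low in control, and noise was drawn independently for each gene and library, without the length trend. These rates therefore do not cover low members or shifts shared by the genes of a library. The 9 comparisons of the design share libraries. A further 2 comparisons, of the HIF1A shRNA with KC7F2, were added after the data were seen.

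Members and lists were chosen with earlier results of these data known. Values in every library are given for the 4 members of each role with the smallest adjusted p in any of the 9 comparisons, and for HSPA5, XBP1, ERN1, ATF6, EIF2AK3 and PPP1R15A. Other members are named where called, and other pathway genes up to 3 per list and comparison. Exon overlaps come from GENCODE 29 and promoters from RefSeq. Alternatives were quantile normalisation or median-ratio scaling, pseudocounts of 0.1 and 1, a 5 RPKM filter or none, eBayes in its robust form, a replicate block, a fit of only the groups compared, each library left out, and the 3 short-gene libraries left out together, which leaves 1 KC7F2-treated control library that is assumed to vary like the other groups. Losses listed beside a call leave out the replicate block, whose effect is given once, with the other alternatives. Removal of each library's trend on exon length was added after the data were seen. Figures and depth used Python 3.11.15.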

Additional observations from a re-analysis of the deposited data

Results flagged for a closer look

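The effect of the HIF1A shRNA on SSR1 differed between cells with and without the FOXA1 shRNA, by a test of that difference in the same limma fit. The interaction was 0.69 ± 0.12 on the log2(RPKM + 0.5) scale (adjusted p = 0.00212), with SSR1 at 9.15 RPKM with both shRNAs against 18.9 with shFOXA1, and at 6.10 with shHIF1A against 20.9 in control. The effect on SSR3 differed in the opposite sense, with an interaction of -0.82 ± 0.22 (adjusted p = 0.0293) and means of 24.9 RPKM with both shRNAs against 67.9 with shFOXA1, and of 22.7 with shHIF1A against 35.9 in control. FOXA1 mRNA differed between the cells with both shRNAs and those with shFOXA1 alone, and its part in these 2 differences was not tested.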

How the results depend on the processing

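Of 102 calls of members over all 11 comparisons, 56 held under every alternative run and 46 were lost under at least 1, while 67 uncalled differences passed under at least 1. With no filter, 0 members fell with KC7F2 on shFOXA1 and 0 were below 0 in the interaction of both knockdowns. Median-ratio scaling gave 7 rises and 10 falls with shHIF1A against control, 6 rises on shFOXA1, 8 rises and 5 falls for FOXA1 knockdown within KC7F2, and 5 rises for the HIF1A shRNA against KC7F2 on shFOXA1. Quantile normalisation gave 9 rises and 3 falls within KC7F2 and 5 rises in that last comparison. Over all tested genes, 2326 rose in that comparison with median-ratio scaling and 2523 with quantile normalisation, against 3020 as given. With only the groups compared, 1 fell with shFOXA1, 2 with KC7F2 on shFOXA1, and 0 were below 0 in the interaction. Without the 3 short-gene libraries, 2 fell with shFOXA1, 2 with KC7F2 on shFOXA1, 6 rose with shFOXA1 within HIF1A knockdown, 3 rose and 1 fell within KC7F2, 2 were above 0 in the interaction, and 5 rose with shHIF1A against KC7F2. With the length trend removed, 11 fell with shFOXA1 and 5 rose within HIF1A knockdown. Causes were not tested.

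With 1 library left out at a time, members that fell numbered 2 to 14 with shFOXA1, 6 to 10 with shHIF1A, 0 to 2 with KC7F2, 0 to 0 with KC7F2 on shFOXA1, 2 to 5 with shFOXA1 within HIF1A knockdown, 6 to 11 within KC7F2, 0 to 2 in the interaction of both knockdowns and 5 to 9 with shHIF1A against KC7F2. Members that rose numbered 5 to 11 with shHIF1A, 0 to 1 with KC7F2, 6 to 10 with the HIF1A shRNA on shFOXA1 and 4 to 8 with shHIF1A against KC7F2. With quantile normalisation HYOU1 within KC7F2 changed sign, to 0.0908 (adjusted p = 0.456), and so did ATF4, to 0.0107 (adjusted p = 0.927). TXNDC5 has no value at the filter of 5 RPKM.

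Replicate numbers did not pair the libraries: same-numbered libraries correlated at -0.062 to 0.053 with shFOXA1, 0.046 to 0.215 with shHIF1A, where 3 of 3 matched their own number best, a hint from the data only, and -0.214 to 0.252 with KC7F2. With the replicate block 101 of the 102 calls held, ATF6 on shFOXA1 was lost (0.35, adjusted p = 0.0543), and the counts with shFOXA1 were 4 rises and 7 falls. At 3.26 to 12.1 (in units of 1e6) reads per library, changes of low members such as TXNDC5 rest on few reads.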
